A study of Mus musculus with 43 samples.

Results

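The genes described here belong to the cell's answer to amino acid shortage and to unfolded protein in the endoplasmic reticulum (ER). They are 46 genes named by symbol, of 22462 genes in the table, sorted into 8 branches by known function: transcription factors around ATF4 (6 genes), stress effectors controlled by ATF4 (6), serine and one-carbon synthesis (5), asparagine and proline synthesis (3), tRNA synthetases (4), ER stress sensors with XBP1 (4), ER chaperones and folding enzymes (14) and ER-associated degradation (4). All 46 symbols were found, and all 46 had been tested by the authors. The first 5 branches are called the ATF4 side below (24 genes) and the last 3 the ER side (22 genes).

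The RNA came from E14 mouse embryonic stem cells, a feeder-free line kept here on gelatin in serum with LIF, a cytokine that holds such cells undifferentiated. It was compared between 3 libraries of unmodified control cells and 3 libraries of MTF2 KO cells, in which the gene of the Polycomb-like protein MTF2 is disrupted. MTF2 is a subunit of PRC2, the Polycomb complex whose product is histone H3 trimethylated at lysine 27 (H3K27me3). The labels do not say how many knockout clones were used, and they name no stressor or drug. The other 37 samples, ChIP-seq and input, some of them from cells rescued with wild-type or K339A MTF2, were not analysed here.

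Each gene had 1 pooled value per group in FPKM, that is, fragments scaled to transcript length and library size. Every FPKM printed is that pooled value of the authors, so levels carry no SD between libraries, and how deeply each library was sequenced is unknown. Where 2 values are given for a gene, control comes first. Ratios are log2((knockout FPKM + 0.5)/(control FPKM + 0.5)), so a log2 ratio of low genes is understated. A gene is called higher or lower where the authors' Cuffdiff q, a p-value adjusted over 11362 tested genes, was at or under 0.05. Mtf2 itself stood at 74.3 FPKM in control cells against 44.7 FPKM in the knockout, 60.2% of control, so transcripts of the targeted gene were still present (Cuffdiff q = 0.0496 in the authors' deposited table).

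The pathways are best known as follows. Kinases that sense amino acid shortage, misfolded ER protein or other stress phosphorylate the translation factor eIF2, which slows protein synthesis as a whole but lets ATF4 mRNA be translated. ATF4 protein then switches on genes for amino acid supply, tRNA charging and, under lasting stress, cell death, and it binds a short element called the C/EBP-ATF response element (CARE). In parallel, the ER sensors ATF6 and IRE1 (gene Ern1, which acts by splicing Xbp1 mRNA) switch on ER chaperones, largely through the ER stress response element (ERSE). FPKM per gene measures mRNA and reports neither eIF2 phosphorylation, nor ATF4 or ATF6 protein, nor the splicing of Xbp1.

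All calls on the ATF4 side were gains, and the share of ER chaperones called was about that of all tested genes. On the ATF4 side 12 of 24 genes rose and 0 fell, led by Chac1 at 31.7 FPKM in control cells against 156 FPKM in the knockout, and 23 of 24 had a ratio above 0. Of the 14 chaperones and folding enzymes 1 rose, Dnajc3, and 1 fell, Hspa5, which is 14.3% called, while 10 of 14 had a ratio below 0. On the whole ER side 4 of 22 genes rose (Dnajc3, Eif2ak3, Atf6 and Herpud1) and 1 fell. That is 22.7% called and 18.2% higher, with a median log2 ratio of -0.05. Over all 46 genes, 16 were called higher and 1 lower, which is 34.8% higher and 2.17% lower. Over all tested genes, 12.9% were called, 6.9% higher and 6.03% lower. The median log2 ratio was 0.71 on the ATF4 side, -0.14 among the chaperones and -0.0035 over all tested genes, whose middle 50% lay between -0.40 and 0.47. Of all tested genes 49.8% had a ratio above 0. Among the 9892 tested genes with a control FPKM at or above the lowest of the 46, 45.1% had a ratio above 0. Their median log2 ratio was -0.06, so the chaperone median lay only a little below it. The difference between the ATF4 side and the chaperones was not tested.

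**Figure D1:**
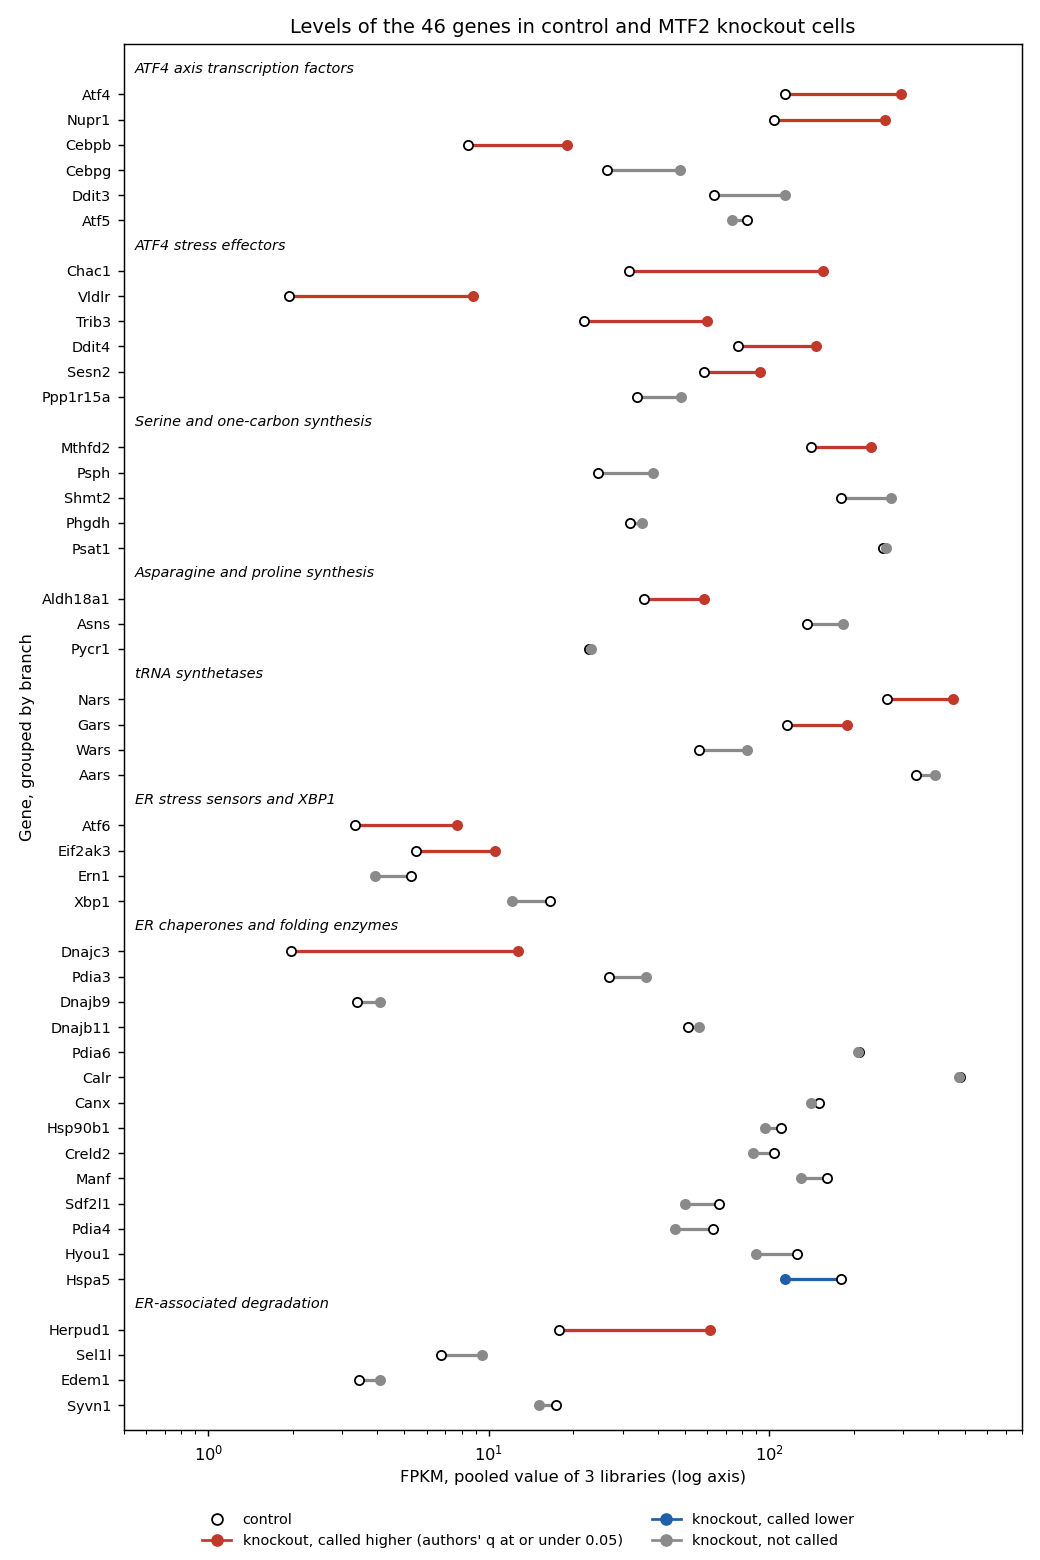
FPKM of each of the 46 genes in control (open circles) and knockout cells (filled circles), on a log axis and grouped by branch. Lines join the pooled values of 1 gene, and colour gives the authors' call. Most red lines lie in the upper 5 branches, and among the chaperones only Dnajc3 and Hspa5 are coloured as called, with 10 of 14 knockout circles to the left of the control ones. The circles of Pdia6 and Calr lie on top of each other.

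Markers of other cells moved in the same comparison. Of 14 primitive endoderm markers, 11 were called higher and 0 lower, and their summed level was 236 FPKM in control cells against 1596 FPKM in the knockout. Gata4, called higher, stood at 2.17 and 71.7 FPKM. Sox17 stood at 0.710 and 46.1 FPKM but was not called (Cuffdiff q = 0.292 in the authors' deposited table). Of 6 stem cell markers 0 were called, with summed levels of 3669 and 3148 FPKM, and of 7 fibroblast markers 1, Thy1, had been tested and was not called, with Col3a1, Dcn and Postn listed at 0 in both groups. RNA from more endoderm-like cells and a higher level per cell cannot be told apart in bulk RNA, and the part of these cells in the results below was not tested.

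Among the transcription factors, Atf4, Nupr1 and Cebpb rose. Atf4 (chromosome 15, 80255184 to 80257540, mm10) was measured at 114 FPKM in control cells against 294 FPKM in the knockout, a 2.58-fold difference (log2 ratio 1.36). By FPKM, Atf4 ranked 14 of the 46 genes in control cells and 4 in knockout cells. Nupr1 (chromosome 7, 126623249 to 126625676), a small stress-induced chromatin protein, went from 104 to 259 FPKM (log2 ratio 1.31), and Cebpb, a bZIP factor that pairs with ATF4, from 8.40 to 19.0 FPKM (log2 ratio 1.13). The Cuffdiff q was 0.0012 for Atf4 and Nupr1 and 0.0283 for Cebpb in the authors' deposited table. The value of 0.0012 is the lowest in that table and is shared by 472 genes, 8 of them among the 46.

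The other factors were not called. Cebpg, a bZIP partner of ATF4, stood at 26.4 FPKM in control cells against 48.2 FPKM in the knockout (log2 ratio 0.86, Cuffdiff q = 0.0788 in the authors' deposited table). Ddit3, which encodes CHOP, the factor linked to death under lasting stress, stood at 63.8 and 114 FPKM (log2 ratio 0.84, Cuffdiff q = 0.496 in the authors' deposited table). Atf5, a relative of ATF4 that is also controlled through its translation, was the only gene of the ATF4 side with a ratio below 0, at 83.3 and 74.0 FPKM. Ddit3 and Atf5 share their locus entries in the table with other genes, which is described further down.

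The stress effectors held the largest ratios of the ATF4 side, and 5 of 6 rose. Chac1 (chromosome 2, 119351229 to 119354381), which degrades glutathione and is a sensitive ATF4 and CHOP target, was 4.91-fold higher in the knockout (log2 ratio 2.28). Vldlr, a lipoprotein receptor induced through PERK and ATF4, went from 1.94 to 8.81 FPKM (log2 ratio 1.93), and Trib3, a pseudokinase that restrains AKT and ATF4, from 21.9 to 59.8 FPKM (log2 ratio 1.43). Both negative regulators of mTORC1 in the list also rose. Ddit4 (also called REDD1) stood at 77.1 FPKM in control cells against 147 FPKM in the knockout, and Sesn2 at 58.6 and 92.6 FPKM. Ppp1r15a, which encodes GADD34, the phosphatase subunit that reverses eIF2 phosphorylation, was not called at 33.9 and 48.5 FPKM (log2 ratio 0.51). In the authors' deposited table the Cuffdiff q was 0.0012 for Chac1, Trib3 and Ddit4, 0.0071 for Vldlr and 0.0236 for Sesn2.

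Of the 8 enzymes of amino acid and one-carbon supply 2 rose. In the serine and one-carbon branch 1 of 5 rose: Mthfd2, the mitochondrial folate dehydrogenase, from 141 to 231 FPKM (log2 ratio 0.71, Cuffdiff q = 0.0107 in the authors' deposited table). Shmt2, which passes the one-carbon unit of serine to folate in mitochondria, stood at 180 and 271 FPKM and just missed (Cuffdiff q = 0.0563 in the authors' deposited table). The 3 enzymes that make serine itself were not called. Phgdh, the entry step, stood at 31.9 and 35.3 FPKM, Psat1, the transaminase, at 254 and 262 FPKM, and Psph, the last step, at 24.5 and 38.4 FPKM. The branch thus ran from a log2 ratio of 0.04 for Psat1 to 0.71 for Mthfd2, with a median of 0.59.

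In proline synthesis 1 enzyme rose and another was not called. Aldh18a1, the first enzyme, rose from 35.7 to 58.5 FPKM (log2 ratio 0.70, Cuffdiff q = 0.0221 in the authors' deposited table). Pycr1, the last enzyme, stood at 22.7 and 23.2 FPKM and was not called. Asns, asparagine synthetase and the textbook target of ATF4 under amino acid shortage, was not called either, at 136 FPKM in control cells against 183 FPKM in the knockout (log2 ratio 0.42, Cuffdiff q = 0.187 in the authors' deposited table).

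Of the 4 tRNA synthetases, which load amino acids onto tRNA, 2 rose. Nars (asparagine) went from 262 to 453 FPKM (log2 ratio 0.79) and Gars (glycine) from 115 to 189 FPKM (log2 ratio 0.71), with a Cuffdiff q of 0.0071 and 0.0090 in the authors' deposited table. Wars (tryptophan) stood at 56.1 and 83.5 FPKM and Aars (alanine) at 333 and 390 FPKM, neither called. Nars and Aars were abundant: in knockout cells they ranked 2 and 3 of the 46 genes by FPKM, after Calr.

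On the ER side, 2 of the 4 genes of the sensor branch rose. Eif2ak3, which encodes PERK, the sensor that phosphorylates eIF2, rose from 5.52 to 10.6 FPKM (log2 ratio 0.88). Atf6, the sensor that is cut in the Golgi to release a transcription factor, rose from 3.33 to 7.71 FPKM (log2 ratio 1.10). Their Cuffdiff q was 0.0258 and 0.0012 in the authors' deposited table. The genes of the IRE1 route had ratios below 0 and were not called: Ern1 stood at 5.29 FPKM in control cells against 3.92 FPKM in the knockout, and Xbp1, the mRNA that IRE1 splices, at 16.5 and 12.1 FPKM (log2 ratio -0.43). The 3 sensors were of low abundance, ranking 40 (Eif2ak3), 41 (Ern1) and 44 (Atf6) of the 46 genes in control cells.

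Most chaperones and folding enzymes were not called, and their ratios ran from -0.66 to 2.41. Hspa5 (chromosome 2, 34771970 to 34777547), which encodes BiP, the master chaperone that holds the sensors inactive and is the usual readout of ER stress, fell from 180 to 114 FPKM, 63.2% of control (log2 ratio -0.66, Cuffdiff q = 0.0225 in the authors' deposited table). It was the only one of the 46 genes called lower, and it ranked 7 of the 46 by FPKM in control and 17 in knockout cells. Several of its partners in the ER lumen were not called. Hyou1, the exchange factor of BiP, stood at 126 and 89.6 FPKM (log2 ratio -0.49), and Hsp90b1, which encodes GRP94, at 110 and 96.5 FPKM. The BiP cochaperone Dnajb11 stood at 51.2 and 56.2 FPKM, and Sdf2l1, which works with it, at 66.2 and 50.0 FPKM.

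The lectin chaperones, which hold newly glycosylated proteins, differed little between groups. Calr (calreticulin), the most abundant of the 46 genes in both groups, stood at 479 FPKM in control cells against 476 FPKM in the knockout, and Canx (calnexin) at 150 and 140 FPKM. Among the protein disulfide isomerases, which form and shuffle disulfide bonds, Pdia6 stood at 208 FPKM in both groups, Pdia4 at 63.0 and 46.3 FPKM and Pdia3 at 26.8 and 36.3 FPKM. None of these 5 was called. The secreted ER stress proteins Manf (161 and 130 FPKM) and Creld2 (104 and 87.5 FPKM) were not called, nor was the BiP cochaperone Dnajb9 (3.38 and 4.10 FPKM). The summed level of the 14 genes was 1731 FPKM in control cells against 1547 FPKM in the knockout, 89.4% of control. That is about the share over all tested genes, whose summed FPKM in the knockout was 90.2% of control.

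Dnajc3 was the only gene of the chaperone branch that rose. It encodes P58IPK, a BiP cochaperone that also inhibits eIF2 kinases, and it went from 1.98 FPKM in control to 12.7 FPKM in knockout cells, a 6.43-fold difference and the largest log2 ratio of the 46 genes (2.41, Cuffdiff q = 0.0012 in the authors' deposited table). Dnajc3 (chromosome 14, 118937932 to 118981702) lies where many genes were higher: of its 20 nearest expressed neighbours 17 had a ratio above 0, with a median log2 ratio of 0.74. Less that median, Dnajc3 stood at 1.67. Over chromosome 14 as a whole 30.2% of tested genes were called higher.

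In ER-associated degradation, which returns misfolded protein to the cytosol for destruction, 1 of 4 genes rose. Herpud1 (chromosome 8, 94386438 to 94395377), a membrane protein of the degradation complex, went from 17.7 to 61.5 FPKM, a 3.47-fold difference (log2 ratio 1.76, Cuffdiff q = 0.0012 in the authors' deposited table). The other parts of the same complex were not called: the ubiquitin ligase Syvn1 (HRD1) stood at 17.4 and 15.2 FPKM and its partner Sel1l at 6.74 and 9.44 FPKM. Edem1, a lectin that hands over glycoproteins and is a target of XBP1, stood at 3.46 and 4.11 FPKM and was not called.

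**Figure D2:**
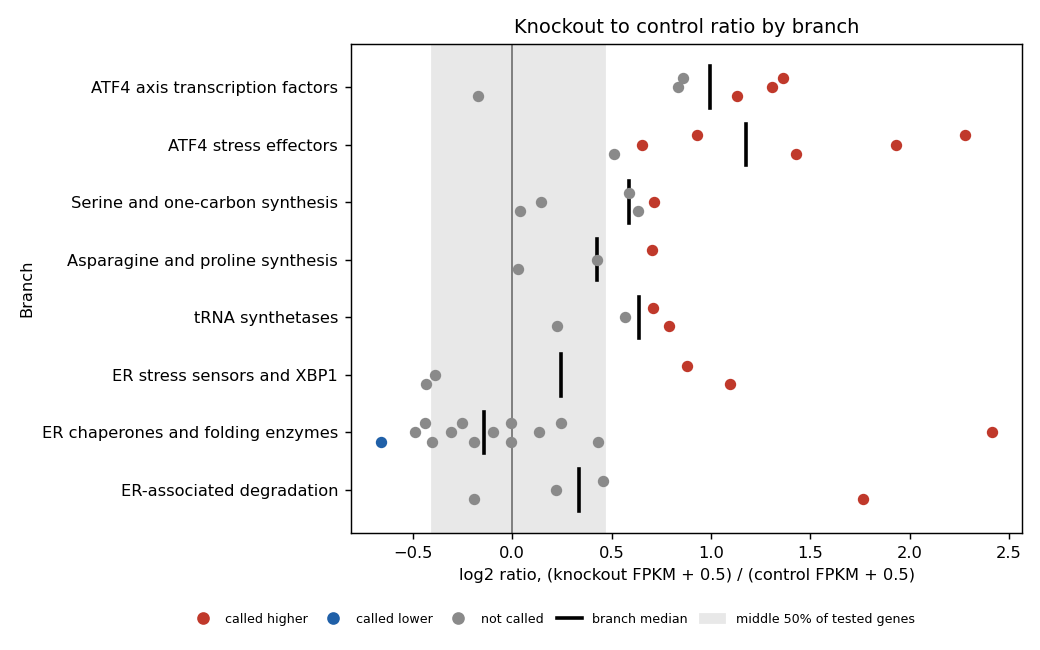
Log2 ratio of knockout to control for each gene (points, coloured by the authors' call), by branch, with the branch median (black bar). The grey band is the middle 50% of all tested genes and the grey line their median. Medians of the ATF4-side branches lie between 0.42 and 1.18, and that of the chaperones at -0.14.

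Promoters were then searched for the elements that the 2 sides are known for, a feature the choice of genes did not use directly, though many of these genes are classed by such elements in the literature. Sequences were RefSeq promoters on GRCm38.p6, from 250 bases before to 50 after the start site, and 41 of the 46 genes matched. Atf6, Wars, Nars, Manf and Hyou1 were not in that table. CARE was searched as TGATGNAA, ERSE as CCAAT, 9 bases of any kind and CCACG, ERSE-II as ATTGG, 1 base and CCACG, and the unfolded protein response element (UPRE) as TGACGTGG, each exactly and on both strands. An ERSE can share its CCACG with an ERSE-II or, read on the other strand, with a UPRE, and none of the 41 genes held such a pair.

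CARE was found in 9 of 41 genes (22.0%), against 4.51% of all 27025 genes in the promoter table and 2.47% of the 8737 tested genes in it. An ERSE was found in 8 of 41 (19.5%), against 0.137% and 0.195%, and an ERSE-II in 2 of 41 (4.88%), against 0.0444% and 0.0916%. UPRE was found in 0 of 41, against 0.714% and 1.16%. Every CARE outside Herpud1 lay on the ATF4 side, and every ERSE or ERSE-II lay on the ER side, where the degradation branch held both kinds. CARE lay in Chac1, Vldlr, Trib3, Nupr1, Asns, Pycr1, Gars, Aars and Herpud1, and ERSE in Hspa5, Calr, Canx, Hsp90b1, Pdia6, Creld2, Dnajc3 and Syvn1. ERSE-II lay in Herpud1 and Dnajb11, so Herpud1 was the only gene with both CARE and an ERSE-type element.

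The following promoters, chosen after their values were seen, show elements of either kind in genes that rose, fell or were not called: Chac1 (chr2:119350992-119351241, plus strand), Nupr1 (chr7:126625471-126625720, minus strand) and Vldlr (chr19:27216770-27217019, plus strand) rose and hold CARE, Herpud1 (chr8:94386179-94386428, plus strand) rose and holds CARE and ERSE-II, Dnajc3 (chr14:118937682-118937931, plus strand) rose and holds ERSE, Hspa5 (chr2:34771840-34772089, plus strand) fell and holds ERSE, and Hsp90b1 (chr10:86705445-86705694, minus strand) was not called and holds ERSE in 2 copies. Each is the 250 bases before the start site, 5′ to 3′ on the strand of the gene, and capitals mark the matched elements.
Chac1: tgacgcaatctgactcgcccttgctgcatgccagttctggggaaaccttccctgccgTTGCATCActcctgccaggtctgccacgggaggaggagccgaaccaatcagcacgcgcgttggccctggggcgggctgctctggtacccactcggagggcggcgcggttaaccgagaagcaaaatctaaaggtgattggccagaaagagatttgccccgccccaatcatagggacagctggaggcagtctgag
Nupr1: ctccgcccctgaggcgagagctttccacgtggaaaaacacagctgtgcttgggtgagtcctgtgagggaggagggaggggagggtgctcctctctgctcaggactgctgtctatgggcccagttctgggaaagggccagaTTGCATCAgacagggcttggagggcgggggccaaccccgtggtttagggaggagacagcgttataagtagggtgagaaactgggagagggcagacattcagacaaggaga
Vldlr: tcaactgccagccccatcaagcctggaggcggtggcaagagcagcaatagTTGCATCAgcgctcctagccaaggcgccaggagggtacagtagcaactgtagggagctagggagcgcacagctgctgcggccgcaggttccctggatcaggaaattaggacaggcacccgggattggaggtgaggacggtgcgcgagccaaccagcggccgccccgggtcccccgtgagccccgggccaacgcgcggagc
Herpud1: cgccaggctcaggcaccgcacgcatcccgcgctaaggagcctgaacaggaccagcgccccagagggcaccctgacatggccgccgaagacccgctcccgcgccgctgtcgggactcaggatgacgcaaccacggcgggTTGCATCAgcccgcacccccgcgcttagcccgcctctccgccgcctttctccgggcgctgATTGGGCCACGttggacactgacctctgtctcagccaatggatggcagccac
Dnajc3: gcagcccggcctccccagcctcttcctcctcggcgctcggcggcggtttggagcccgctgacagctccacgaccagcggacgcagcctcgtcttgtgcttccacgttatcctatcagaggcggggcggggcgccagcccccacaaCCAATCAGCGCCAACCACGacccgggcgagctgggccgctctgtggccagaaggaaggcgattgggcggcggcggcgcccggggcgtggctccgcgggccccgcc
Hspa5: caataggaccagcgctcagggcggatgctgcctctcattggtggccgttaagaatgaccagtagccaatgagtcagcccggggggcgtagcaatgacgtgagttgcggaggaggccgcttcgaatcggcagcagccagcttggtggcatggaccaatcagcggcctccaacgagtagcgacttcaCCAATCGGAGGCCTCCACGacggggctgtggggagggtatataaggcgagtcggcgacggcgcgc
Hsp90b1: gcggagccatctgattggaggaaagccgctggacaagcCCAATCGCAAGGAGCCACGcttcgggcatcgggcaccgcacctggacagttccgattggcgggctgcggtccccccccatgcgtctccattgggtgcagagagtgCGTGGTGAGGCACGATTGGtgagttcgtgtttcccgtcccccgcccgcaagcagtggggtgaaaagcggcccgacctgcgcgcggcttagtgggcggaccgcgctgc

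Read on the strand where it matches the searched letters, the CARE of Chac1, Nupr1, Vldlr, Herpud1 and Pycr1 was the same 8 bases, TGATGCAA, which Aars also holds. Asns, Gars and a second site in Aars had TGATGAAA, and Trib3 had TGATGTAA, 15 to 22 bases after its start site. In Chac1 the element lay 193 to 186 bases before the start site, in Vldlr 200 to 193 (in 1 of its 2 listed promoters), in Nupr1 110 to 103, and in Herpud1 112 to 105, with the ERSE-II at 52 to 42. The same element did not go with the same ratio: Pycr1, with TGATGCAA 103 to 96 bases before its start, stood at a log2 ratio of 0.03.

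By kind of element, the ratios were as follows. Of the 9 genes with CARE, 6 were called higher and 0 lower, and all 9 had a ratio above 0 (median log2 ratio 1.31). Of the 9 genes with an ERSE-type element and no CARE, 1 was called higher, Dnajc3, and 1 lower, Hspa5, and 7 had a ratio below 0 (median log2 ratio -0.09). The 23 genes with none of the 4 elements, Atf4 among them, had 7 higher and 0 lower calls and a median of 0.51. Outside the 46 genes, 207 tested genes held CARE, of which 10.6% were called higher and 4.35% lower with a median log2 ratio of 0.20, beside 6.25% and 6.02% and -0.01 over all 8698 tested entries outside the 46 genes that match the promoter table, a symbol with several entries counting each time. Of the 22 called higher, 7 lie on chromosome 14 and 3 on chromosome 8. Without those chromosomes, an alternative chosen after seeing the data, 12 of 183 CARE genes (6.56%) were called higher, beside 5.40% of 7977 entries. The median log2 ratio was then 0.17 for the CARE genes, beside -0.03 over those entries. The 15 other tested genes with an ERSE-type element had 0 higher and 1 lower call and a median of 0.15. Among the 46 genes, element and side can hardly be told apart. Every CARE outside Herpud1 lay on the ATF4 side, where 23 of 24 genes had a ratio above 0 with or without the element. Every ERSE-type element lay on the ER side, and the genes with none of the elements came from both sides. The ratios by element thus largely repeat those by side. These are descriptions, and no test was made of them.

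**Figure D3:**
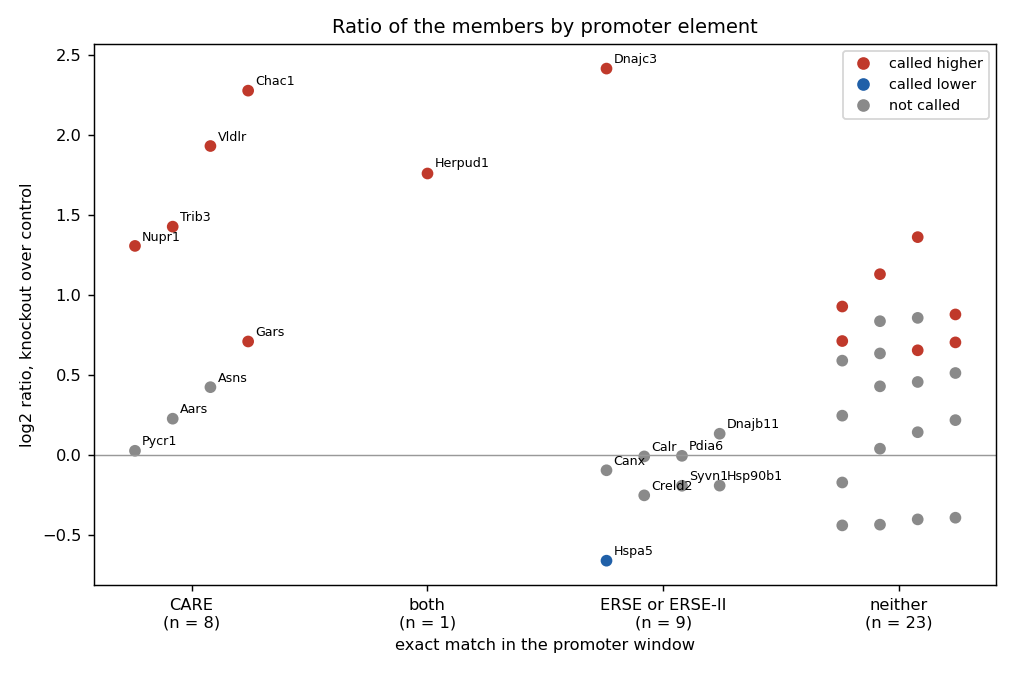
Log2 ratio of knockout to control for the 41 genes with a RefSeq promoter, by the elements found in it: CARE (8 genes), CARE and ERSE-II (Herpud1), ERSE or ERSE-II (9 genes) or neither (23 genes). Points are genes, coloured by the authors' call. All CARE genes lie above 0, and the ERSE genes lie near or below it except Dnajc3.

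Since whole stretches of some chromosomes differed between the lines, each gene was set beside its 20 nearest other expressed genes. The neighbours' median log2 ratio ran from -0.31 to 0.74 over the 46 genes and was beyond 0.5 for 2 of them, Dnajc3 and Hsp90b1 (neighbours at 0.55). Less the neighbours' median, 24 of 24 genes of the ATF4 side were above 0, the lowest being Pycr1 at 0.0083. On the ER side 12 of 22 genes were then below 0, among them 9 of the 14 chaperones. Chac1 then stood at 2.42, Atf4 at 1.61, Trib3 at 1.43 and Herpud1 at 1.75. Hspa5 stood at -0.60 and Hsp90b1 at -0.74. The ratios of the called genes thus kept their direction beside their surroundings.

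**Figure D4:**
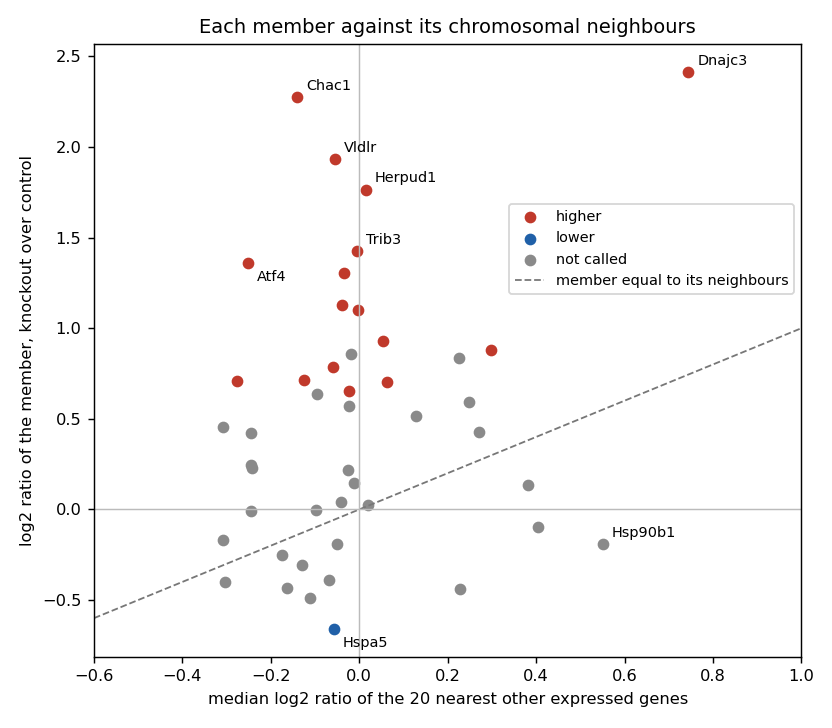
Log2 ratio of each of the 46 genes (vertical) against the median log2 ratio of its 20 nearest other expressed genes (horizontal), coloured by the authors' call. The dashed line marks a gene equal to its neighbours. Dnajc3 lies farthest to the right, and the other genes called higher lie above neighbours whose medians are between -0.28 and 0.30.

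Calls also differed with the table's locus entries, which can span several overlapping genes. Of the 46 genes, 9 share a locus entry with at least 1 other gene (Atf5, Ddit3, Ppp1r15a, Shmt2, Aars, Pdia3, Pdia6, Manf and Syvn1), and 0 of these 9 were called, against 17 of the 37 others. Over all tested genes 6.64% of those sharing an entry were called and 14.5% of those alone in one. Ddit3 and Ddit4 show a difference at about the same ratio. Ddit3, with 2 genes in its entry, had a deposited test statistic of 0.69 at a log2 ratio of 0.84. Ddit4, alone in its entry, had 2.44 at 0.93. Other pairs do not show it. Shmt2, with 2 genes in its entry, had 1.54 at 0.59, and Wars, alone, 1.47 at 0.57. Pdia3, also with 2 genes, had 1.04 at 0.43, and Asns, alone, 1.14 at 0.42. Ddit3, Ppp1r15a and Shmt2 are given as not called, which does not show that they were alike in both groups.

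The other genes of these pathways were taken from 10 further lists. The list of other ATF4 or CHOP associated genes, 26 in number, had the highest share of calls of the 10: of 24 tested, 14 were called higher and 0 lower, with a median log2 ratio of 0.68. That is 58.3% called, beside the 12.9% of all tested genes. Atf3, a stress-induced bZIP factor, went from 1.98 to 48.4 FPKM (log2 ratio 4.30), Tnfrsf10b, a death receptor, from 1.48 to 7.84 FPKM, and Stc2, a secreted stress protein, from 6.07 to 19.6 FPKM. Tnfrsf10b lies on chromosome 14 among neighbours with a median log2 ratio of 1.02. All 10 lists were drawn up with earlier results of these data known, so the share of calls in this list is no independent check. Atf3, which also belongs to the immediate early genes, was then known to be high.

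The lists of tRNA charging and folate genes had fewer calls, 43.8% and 15.4% of their tested genes, beside the 12.9% of all tested genes. Of 16 other cytosolic tRNA synthetases, 6 were called higher and 1 lower, with Hars (29.9 to 55.1 FPKM), Farsb (35.4 to 61.4 FPKM) and Sars (330 to 555 FPKM) first among the gains, and Dars, for aspartate, falling from 356 to 202 FPKM. Hars and Farsb share their locus entries. Of 13 tested serine, glycine and folate genes, 2 rose and 0 fell: Gldc, the glycine cleavage decarboxylase, from 72.7 to 149 FPKM, and Tyms, thymidylate synthase, from 11.1 to 19.7 FPKM.

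The translation factor that starts the pathway and its regulators went both ways. Of 15 genes, 2 rose and 3 fell, with a median log2 ratio of -0.27. The share called was 33.3%, beside the 12.9% of all tested genes. Impact, an inhibitor of the amino acid sensor kinase GCN2, rose from 16.1 to 42.7 FPKM, and Ppp1r15b, the constitutive eIF2 phosphatase subunit, from 22.5 to 35.6 FPKM. All 3 called losses were subunits of eIF2B, the exchange factor that phosphorylated eIF2 blocks: Eif2b3 fell from 45.4 to 23.3 FPKM, Eif2b5 from 63.6 to 39.4 FPKM and Eif2b2 from 126 to 82.6 FPKM. The remaining eIF2B subunits were not called, with Eif2b4 at 97.2 and 78.3 FPKM and Eif2b1, with a ratio above 0, at 15.0 and 19.5 FPKM.

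The further ER lists of folding, degradation and sensor genes each had calls in both directions. Their shares called were 19.0%, 11.5% and 20%, beside the 12.9% of all tested genes. Of 21 tested folding and redox genes 3 rose and 1 fell. Qsox1, a secreted thiol oxidase, went from 3.42 to 11.0 FPKM, Fkbp10, a collagen chaperone, from 4.80 to 14.7 FPKM, and Ero1l, the oxidase that recharges disulfide isomerases, from 3.26 to 7.12 FPKM, while Clgn, a germ cell relative of calnexin, fell from 25.0 to 7.50 FPKM. Ero1l, which is also in the ATF4 and CHOP list, lies on chromosome 14 among neighbours with a median log2 ratio of 0.78, beside its own of 1.02, and Fkbp10 shares its locus entry. Of 26 tested degradation genes, 2 rose, among them the protease Rhbdd1 (2.69 to 7.54 FPKM), and 1 fell, Fam8a1 (20.6 to 12.1 FPKM). The 10 tested stress sensors and bZIP factors had the highest median log2 ratio of the 10 lists, 0.69, with 8 of 10 above 0, but 1 call in each direction: Creb3l1 rose from 2.24 to 7.48 FPKM and Atf6b, the relative of Atf6, fell from 86.6 to 54.3 FPKM. Atf6 and Atf6b thus changed in opposite directions, with Atf6b the more abundant in both groups.

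In the machinery that moves proteins into the ER, all 4 calls were losses. Of 30 tested translocation genes, 0 rose and 4 fell (13.3%), beside 6.03% lower and 12.9% called over all tested genes, and 16 of 30 had a ratio above 0 (median log2 ratio 0.04). The largest were the signal peptidase subunits Spcs2 (292 to 121 FPKM) and Spcs3 (47.7 to 22.4 FPKM) and the translocon-associated Ssr4 (177 to 91.9 FPKM). Spcs3 lies on chromosome 8 among neighbours with a median log2 ratio of -0.53, and Spcs2 shares its locus entry.

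Lists for other compartments had 1 or 2 calls each. Of 14 mitochondrial chaperones and proteases, 1 rose, Hspa9 (123 to 191 FPKM), and 1 fell, Clpp (177 to 111 FPKM), with a median log2 ratio of -0.19. Of 18 tested cytosolic heat shock genes, 1 rose and 0 fell, Cryab, from 4.14 to 22.6 FPKM, and the median was 0.03. Cryab shares its locus entry, and its call lay close to the threshold (Cuffdiff q = 0.0494 in the authors' deposited table). The shares called were 14.3% and 5.56%, beside the 12.9% of all tested genes.

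**Figure D5:**
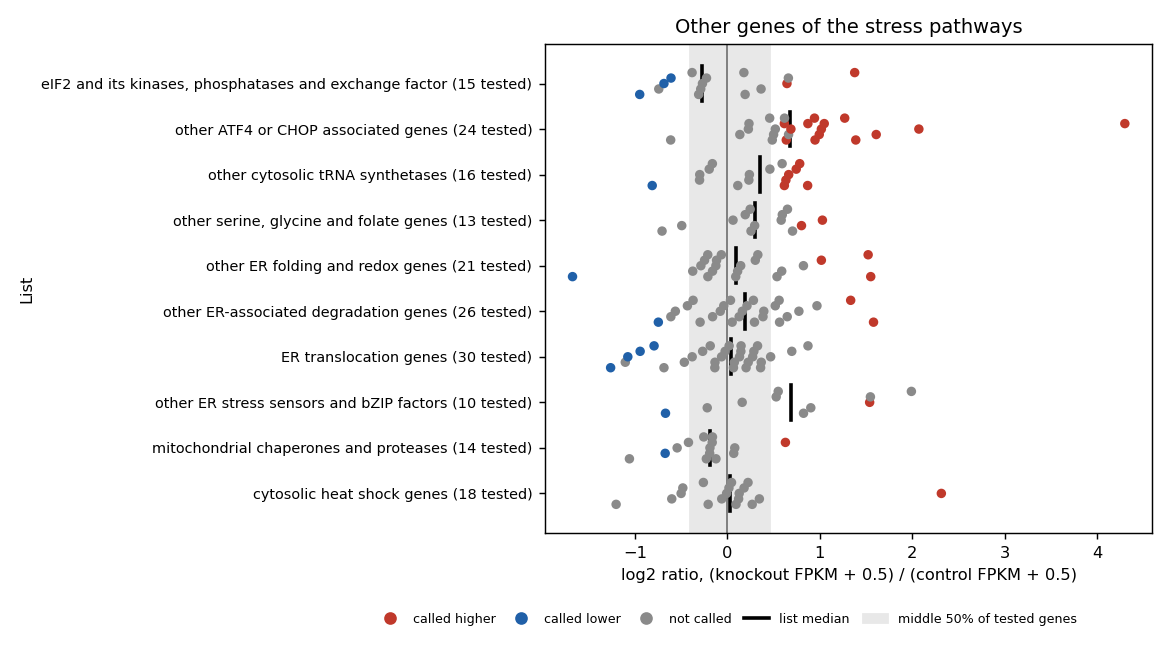
Log2 ratio of knockout to control for the tested genes of the 10 further lists (points, coloured by the authors' call), with each list's median (black bar) and the middle 50% of all tested genes (grey band). The ATF4 and CHOP list and the list of other stress sensors and bZIP factors lie farthest to the right, with medians of 0.68 and 0.69, and the 4 calls of the translocation list are all on the left.

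The counts rest on the authors' p-values. With a normal p computed from the deposited test statistic, 4 of the 46 genes were called higher and 0 lower (Atf4, Chac1, Dnajc3 and Herpud1), beside 95 higher and 29 lower of 11236 genes with a statistic. With values scaled to equal summed FPKM in both groups, which shifts every ratio up by 0.15, the chaperone median went from -0.14 to 0.0043 and 7 of 14 stood below 0, while Hspa5 stayed below 0.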

How the data were processed

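RNA-seq of 3 control and 3 MTF2 KO libraries of E14 cells was used, as 1 table of genes. Tools named in the submitters' processing notes are TopHat2 2.1.0, Bowtie 1.0, Cuffdiff 2.2.1.3 and deepTools. The notes list mm10 and mm9 as builds and assign neither tools nor builds to a data type. Per the file headers, the authors pooled each group into 1 FPKM value per gene. The authors' deposited log2 fold change has no pseudocount, and the deposited test statistic is their score of it. Each p-value and q-value is the authors' own, and q equals p adjusted by Benjamini-Hochberg across the 11362 tested genes, to within 5.2e-07. Untested genes (11098 NOTEST, 2 FAIL) were left out.

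Starts were moved from 0-based to 1-based. All 46 genes overlapped their RefSeq gene on GRCm38.p6, so coordinates are given as mm10. Log2 ratios (pseudocount 0.5 FPKM), medians, counts of the authors' calls and the median of each gene's 20 nearest other expressed genes (1 FPKM or more in either group, same chromosome, other locus entry) were computed with Python 3.11.15, numpy 2.4.6, pandas 2.3.3 and scipy 1.17.1. The neighbour median and the adjustment were tested on simulated data. The table has no values per library, so no test across libraries was made.

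The genes, branches and the 10 further lists (202 entries) were chosen with earlier results of these data known. The rule for names covers all 46 members, Mtf2, the markers (given mostly as counts) and, from each further list, at most 3 genes called higher and 3 called lower, those of largest ratio with 1 FPKM or more. The closing section names others, chosen after their values were seen, and the eIF2B subunits that were not called are named as well. Alternatives were a q of 0.01, a normal p from the test statistic, a 2-fold minimum, an FPKM filter, pseudocounts of 0.1 and 1, median centring, equal summed FPKM, subtraction of neighbours, and leaving out genes with shifted neighbours or shared locus entries. The values of 1 gene that the naming rule selects are not reported here.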

Additional observations from a re-analysis of the deposited data

How the results depend on the processing

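Of the 46 genes, 16 were called higher and 1 lower. With a minimum of 2-fold 9 were called higher and 0 lower (6 on the ATF4 side), and with a normal p from the test statistic 4 and 0 (2 on the ATF4 side and 2 on the ER side). At a q of 0.01 the lower call, Hspa5, was lost (0 lower), and 6 genes in all lost their call. Over all tested genes a 2-fold minimum left 567 higher and 332 lower calls and a q of 0.01 left 439 and 336. With equal summed FPKM the median log2 ratio of the ER side went from -0.05 to 0.0959 and that of the chaperones from -0.14 to 0.0043. The pseudocounts, median centring, the FPKM filter and subtraction of neighbours changed the direction of no called gene. All other medians kept their sign under every alternative run. Turned from log2 into a knockout to control ratio, each moved by less than 1.5-fold. On the log2 scale, subtraction of neighbours took the serine and one-carbon median from 0.59 to 0.34 and that of asparagine and proline synthesis from 0.42 to 0.64. Leaving out genes with shifted neighbours or shared locus entries left each count of calls within 1.5 times. No paired analysis was possible because the table holds 1 pooled value per group, and for the same reason no replicate could be left out. Depth per library is unknown, so no interval of a level can be given.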

Other observations

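Genes outside the 46 and their further lists were also looked at where their promoter held CARE, and those named here were chosen after their values were seen. Of the 207 tested CARE genes outside the 46, 10.6% were called higher and 4.35% lower. Over all tested entries outside the 46 with a promoter these shares were 6.25% and 6.02%. Without chromosomes 8 and 14, 6.56% of CARE genes were called higher, close to the 5.40% of all such entries. Hrk, a BH3-only death gene, was at 2.62 FPKM in control cells and 17.2 FPKM in the knockout (log2 ratio 2.50, with neighbours at 0.0022), and was called higher in the authors' deposited table. The lysosomal protease gene Ctsl (79.8 and 280 FPKM) and the lipoprotein gene Apoe (1458 and 4298 FPKM) were called higher too. Pck2, the mitochondrial phosphoenolpyruvate carboxykinase, stood at 12.3 and 44.3 FPKM, but lies on chromosome 14 among neighbours with a median log2 ratio of 1.14. The direction was not shared by every gene with the element: Crabp1, a retinoid-binding protein gene, was called lower at 106 and 30.4 FPKM, as was Lamtor4, a subunit of the lysosomal mTORC1 anchor, at 91.6 and 48.4 FPKM.

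In the list of other ATF4 or CHOP associated genes, the cystathionine lyase gene Cth (29.5 and 57.4 FPKM), the translation repressor gene Eif4ebp1 (202 and 403 FPKM), the selective autophagy receptor gene Sqstm1 (125 and 259 FPKM) and the bZIP repressor gene Jdp2 (34.8 and 84.6 FPKM) were called higher in the authors' deposited table. Eif4ebp1 lies on chromosome 8 among neighbours with a median log2 ratio of 0.97, beside its own of 1.00, and Sqstm1 shares its locus entry. These genes and the next pair were also named after their values were seen. Bbc3, which encodes the death protein PUMA, was the only tested gene of that list with a ratio below 0, at 88.8 and 57.9 FPKM, and was not called (Cuffdiff q = 0.0531 in the authors' deposited table). Slc7a11, the cystine transporter gene, was not tested, at 0.221 and 0.200 FPKM.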
